A study of Mus musculus with 2 samples.

Results

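Of 60789 open chromatin peaks shared by the 2 libraries, 1294 lay at the start of a long noncoding RNA and away from every protein-coding start. These lncRNA-only peaks were chosen by position. A strict peak of replicate 1 had to overlap a strict peak of replicate 2 by 1 bp or more. Its centre had to lie within 1000 bp of a GENCODE M21 transcript start of the gene types lincRNA, antisense, processed_transcript or bidirectional_promoter_lncRNA, and over 2000 bp from every protein-coding transcript start. Peak height took no part in the choice beyond the peak calls in both libraries. Those calls favour taller peaks. Peaks that met the position rule but were not shared had a replicate 1 median of 0.638, against 1.31 for those shared. The DNase-seq libraries came from B6CASTF1/J males, first-generation offspring of C57BL/6J and CAST/EiJ, whose right cerebral cortex was taken at 2 months of age. There was 1 group of 2 libraries, with no treatment and no second genotype. Replicate 1 came from the animal numbered 5 and replicate 2 from the animal numbered 6, although a single donor record covers both in the labels. The tissue was whole, so its neurons, glia and vessel cells were measured together, and the deposited peaks do not separate the parental alleles.

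DNase I cuts DNA where nucleosomes are absent or loosened, so a peak marks a stretch open to the enzyme in at least some of the cells. A footprint is a shorter stretch within such a region that was cut less than its surroundings, as happens where a protein sits on the DNA. Long noncoding RNAs are transcripts that carry no long open reading frame. Many start next to a coding gene and share its promoter, and the rule set those aside. A lincRNA lies between genes. An antisense RNA lies across a gene on the other strand. A processed_transcript is a spliced noncoding RNA placed in neither class, which includes many host genes of small nucleolar RNAs. A bidirectional_promoter_lncRNA starts back to back with a coding gene.

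The smaller peak set of replicate 1 held 91818 peaks. Of the 60789 that were shared, 3458 had their centre within 1000 bp of a lncRNA start, but 2020 of these were also within 1000 bp of a protein-coding start and a further 144 lay within 2000 bp of one. The remaining 1294 peaks were nearest to starts of 1008 lncRNA genes. Starts of lincRNA genes accounted for 890 of them (68.8%), antisense for 224, processed_transcript for 179 and bidirectional_promoter_lncRNA for 1. Some peaks of a file overlapped each other, so the 1294 peaks made 1260 separate regions, and they matched 1251 peaks of replicate 2. Read from the other library, 1493 of the 75245 strict peaks of replicate 2 met the position rule, and 1293 of these overlapped a strict peak of replicate 1. As a check of the tissue, the promoters of the neuronal genes Syt1, Vamp2, Tubb3 and Camk2a each held a shared peak, and those of the liver genes Alb and Ahsg held none.

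The sequences under 10 of the peaks show what such regions look like. They are the tallest single-copy peak of each gene type, followed by peaks of well-known lncRNAs. Each is read from GRCm38.p6 over the peak of replicate 1, 5′ to 3′ on the strand of the lncRNA. Capitals mark bases inside footprints called in both libraries.
Gm15408 (lincRNA, chr5:149006801-149006980, + strand): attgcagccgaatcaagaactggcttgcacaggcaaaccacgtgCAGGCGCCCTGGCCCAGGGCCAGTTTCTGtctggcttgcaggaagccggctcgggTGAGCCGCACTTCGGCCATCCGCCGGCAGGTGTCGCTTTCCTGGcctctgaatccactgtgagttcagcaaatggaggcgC
1700113A16Rik (antisense, chr3:88178001-88178240, − strand): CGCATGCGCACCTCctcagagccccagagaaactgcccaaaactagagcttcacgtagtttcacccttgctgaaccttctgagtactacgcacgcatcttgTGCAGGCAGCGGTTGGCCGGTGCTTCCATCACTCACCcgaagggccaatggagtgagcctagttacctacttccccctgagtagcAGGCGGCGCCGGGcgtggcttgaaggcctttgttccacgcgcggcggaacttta
1700028E10Rik (processed_transcript, chr5:151368521-151368820, + strand): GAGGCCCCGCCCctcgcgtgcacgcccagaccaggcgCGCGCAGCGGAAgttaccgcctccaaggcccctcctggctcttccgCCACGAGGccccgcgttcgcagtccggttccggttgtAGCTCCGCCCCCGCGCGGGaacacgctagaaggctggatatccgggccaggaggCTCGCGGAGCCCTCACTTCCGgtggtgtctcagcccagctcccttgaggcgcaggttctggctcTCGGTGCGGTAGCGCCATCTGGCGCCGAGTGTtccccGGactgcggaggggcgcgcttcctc
Gm20501 (bidirectional_promoter_lncRNA, chr7:141946041-141946260, − strand): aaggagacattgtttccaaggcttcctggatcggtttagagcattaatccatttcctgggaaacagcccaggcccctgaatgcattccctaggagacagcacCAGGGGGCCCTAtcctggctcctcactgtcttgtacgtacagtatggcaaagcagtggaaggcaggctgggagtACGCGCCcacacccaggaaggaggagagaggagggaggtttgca
Malat1 (lincRNA, chr19:5803521-5803700, − strand): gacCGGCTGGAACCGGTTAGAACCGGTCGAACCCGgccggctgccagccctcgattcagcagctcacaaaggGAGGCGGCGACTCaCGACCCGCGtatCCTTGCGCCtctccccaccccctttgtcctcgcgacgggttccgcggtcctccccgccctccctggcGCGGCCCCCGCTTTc
Snhg8 (processed_transcript, chr3:123508341-123508620, − strand): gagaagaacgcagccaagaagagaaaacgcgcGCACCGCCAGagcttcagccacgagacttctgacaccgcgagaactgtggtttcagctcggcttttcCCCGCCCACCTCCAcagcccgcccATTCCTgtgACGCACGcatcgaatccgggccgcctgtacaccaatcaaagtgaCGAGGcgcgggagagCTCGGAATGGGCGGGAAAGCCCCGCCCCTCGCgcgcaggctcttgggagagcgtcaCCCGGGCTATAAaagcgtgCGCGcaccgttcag
Snhg15 (processed_transcript, chr11:6528761-6528960, − strand): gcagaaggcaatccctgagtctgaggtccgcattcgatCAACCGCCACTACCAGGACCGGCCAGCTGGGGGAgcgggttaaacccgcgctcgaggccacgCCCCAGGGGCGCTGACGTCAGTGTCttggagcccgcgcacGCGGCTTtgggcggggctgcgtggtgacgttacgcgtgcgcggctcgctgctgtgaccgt
Kcnq1ot1 (antisense, chr7:143296581-143296820, − strand): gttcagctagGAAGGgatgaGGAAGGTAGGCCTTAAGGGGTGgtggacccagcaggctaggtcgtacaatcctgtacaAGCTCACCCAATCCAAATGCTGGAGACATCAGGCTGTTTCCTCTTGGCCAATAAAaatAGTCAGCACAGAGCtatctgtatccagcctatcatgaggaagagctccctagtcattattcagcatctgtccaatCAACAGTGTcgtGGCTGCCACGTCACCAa
Snhg5 (processed_transcript, chr9:88522861-88523100, − strand): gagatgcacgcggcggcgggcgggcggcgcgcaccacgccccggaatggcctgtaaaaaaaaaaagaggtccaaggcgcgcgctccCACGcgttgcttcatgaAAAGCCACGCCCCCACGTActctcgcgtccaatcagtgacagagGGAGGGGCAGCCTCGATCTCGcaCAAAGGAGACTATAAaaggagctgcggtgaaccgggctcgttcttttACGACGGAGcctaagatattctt
Mir670hg (lincRNA, chr2:94178861-94179060, − strand): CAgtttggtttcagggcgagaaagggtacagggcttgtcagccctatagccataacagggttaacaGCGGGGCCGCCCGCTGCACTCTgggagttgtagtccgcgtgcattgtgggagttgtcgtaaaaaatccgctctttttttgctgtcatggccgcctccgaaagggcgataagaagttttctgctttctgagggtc

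The 10 sequences were not of 1 kind. The 300 bases of 1700028E10Rik were 71.3% G or C and held 35 CpG dinucleotides, and 106 of the bases lay in footprints of both libraries. The 240 bases of Kcnq1ot1 were 50% G or C with 3 CpG dinucleotides, yet 121 bases lay in such footprints. Snhg8 held 31 CpG dinucleotides, Snhg5 held 26 and Snhg15 held 24. Gm20501, the 1 bidirectional_promoter_lncRNA, held 4 CpG dinucleotides and had 19 bases in footprints of both libraries.

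The median height of the lncRNA-only peaks was 1.31 in replicate 1 and 0.968 in replicate 2, in the unit of the deposited files, whose scaling is not stated. The middle 80% of the peaks ran from 0.609 to 3.55 and from 0.476 to 2.32. Shared peaks within 1000 bp of a protein-coding start, 19347 in number, had medians of 2.06 and 1.38. Shared peaks over 2000 bp from every transcript start, called distal here and 35809 in number, had medians of 1.04 and 0.829. In both libraries the lncRNA-only peaks thus stood between the other sets. Their median was 0.668 ± 0.0458 times that of peaks at coding starts (SD, n = 2 libraries) and 1.21 ± 0.0653 times that of distal peaks. No test of these differences was run, since there are 2 libraries and the peaks of a library are not replicates of each other.

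**Figure D1:**
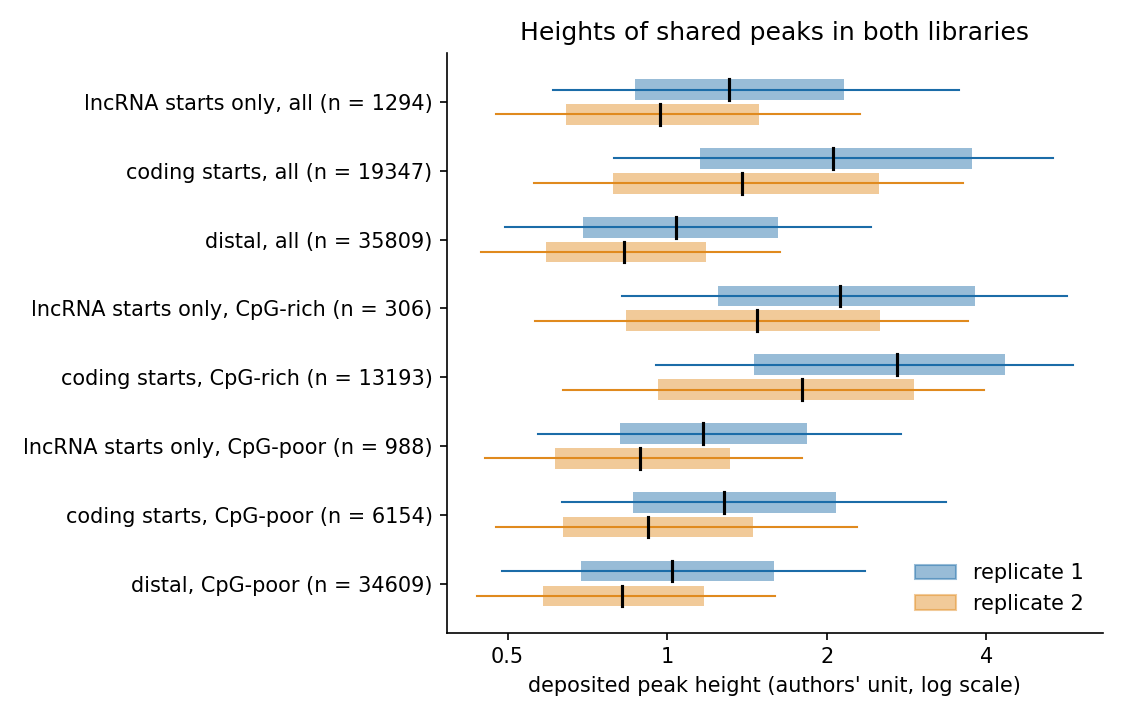
Heights of shared peaks by set, with deposited peak height on a logarithmic axis. Boxes span the 25th to the 75th percentile, black lines mark medians, thin lines span the 10th to the 90th percentile, and colours mark the libraries. The medians of the lncRNA-only peaks, 1.31 and 0.968, lie between those of coding starts and distal peaks, and the sets lie closer together among CpG-poor peaks.

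Peaks with a CpG-rich centre were taller than the others. A centre was called CpG-rich where its central 300 bp held at least 50% G or C and at least 0.6 times the CpG dinucleotides that its base composition predicts. Every other centre was called CpG-poor, also where it missed only 1 of these limits. By this definition 306 of 1294 lncRNA-only peaks were CpG-rich (23.6%, Wilson 95% interval 21.4 to 26%), against 68.2% of peaks at coding starts and 3.35% of distal peaks. The share among all shared peaks was 25.2%. CpG-rich lncRNA-only peaks had median heights of 2.12 and 1.48, and the 988 CpG-poor ones had 1.17 and 0.891. Within the CpG-poor class, lncRNA-only peaks stood at 0.939 ± 0.0385 times the median of peaks at coding starts (SD, n = 2 libraries). Within the CpG-rich class the ratio was 0.801 ± 0.0302. Both ratios were nearer to 1 than the 0.668 found without the division.

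Among the gene types, processed_transcript peaks were the tallest in both libraries, leaving aside the type with 1 peak. Peaks at processed_transcript starts had median heights of 1.58 and 1.15, and 38.5% of them were CpG-rich. Peaks at lincRNA starts had 1.26 and 0.921 with 20.8% CpG-rich, and those at antisense starts had 1.27 and 1.02 with 23.2%. The median of processed_transcript peaks was 1.25 times that of lincRNA peaks in each library.

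The peaks clustered just upstream of the annotated start. Centres at or upstream of the nearest lncRNA start made up 745 of 1294 (57.6%), and 302 centres lay in the 100 bp that end at the start (-99 to 0 bp). Those 302 peaks had medians of 1.73 and 1.20, and 32.8% were CpG-rich. In equal bins of 100 bp, the 125 peaks of the next bin upstream had medians of 1.76 and 1.19, beside 1.72 and 1.19 in the 305 peaks of the bin just upstream of the start. The 118 peaks centred 1 to 100 bp downstream had medians of 1.05 and 0.818. The 202 peaks centred 501 to 1000 bp downstream had 1.11 and 0.829, and 13.9% were CpG-rich. The bases at the start itself were then read. Among 424 lncRNA starts within 100 bp of a peak centre, 53.5% had a purine as the start base and a pyrimidine just before it, the core of the initiator of RNA polymerase II promoters. The share was 44.6% among 751 lncRNA starts with a peak centre over 100 bp and up to 1000 bp away. These groups can overlap, since a start with both a near and a far peak, as at Malat1, belongs to each. Over the 50 bases on each side of the nearer starts, 22.2% of neighbouring bases formed such a pair. Coding starts gave 53.7% with a shared peak centre within 100 bp and 46.7% with one farther away, up to 1000 bp. The letters TATAAA stood between -40 and -20 of 3 of the 424 nearer lncRNA starts (0.708%) and of 0.696% of the nearer coding starts.

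**Figure D2:**
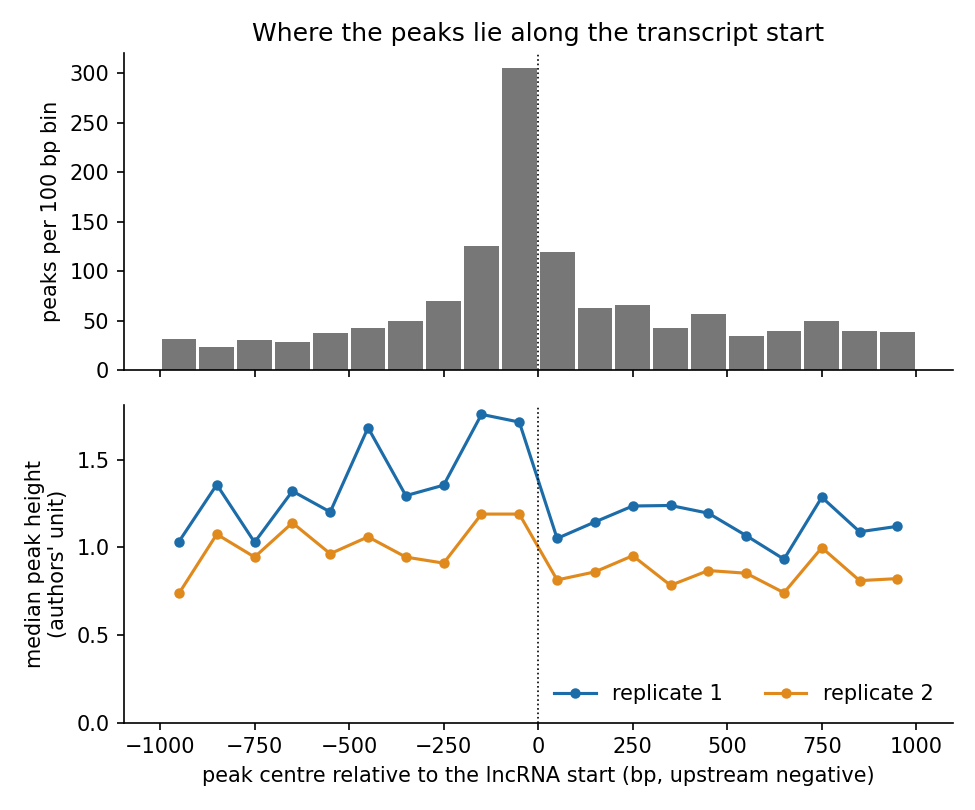
Position of lncRNA-only peaks around the nearest lncRNA start, with upstream distances negative. The upper panel counts peak centres per 100 bp and the lower panel gives the median height per bin in each library. The bin just upstream of the start holds 305 peaks, and the bin that begins at the start holds 119 with lower medians in both libraries.

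Footprints were about as common in lncRNA-only peaks as in all shared peaks. A footprint overlapped 93.4% of them in replicate 1 and 88.5% in replicate 2, and 1113 (86.0%) had at least 1 in each library. Over all shared peaks the shares were 93.8%, 88.7% and 86.1%. Footprints in each library were found in 84.3% of peaks at coding starts and 87.2% of distal peaks. Neither library had a footprint in 53 of the lncRNA-only peaks (4.10%). The share was 3.73% of all shared peaks, 6.31% of peaks at coding starts and 2.30% of distal peaks. Among lncRNA-only peaks the median was 3 footprints per peak in replicate 1 and 2 in replicate 2. The largest sums were in the peaks of 4930578M01Rik (16 and 8), whose nearest coding start, 31948 bp away, is that of the tubulin gene Tuba1a, 5930403N24Rik (13 and 11), whose centre lay 2091 bp from a start of Marcks, and Gm29340 (17 and 7). These 3 peaks were 660, 940 and 960 bp wide, against a median width of 237 bp. Bases listed by the authors with a false discovery rate under 0.05 were also counted within 1000 bp on each side of a centre. The count includes the bases of the peak itself. Its median was 913.5 in replicate 1 and 724.5 in replicate 2, both above the median peak width of 237 bp. At coding starts the medians were 1275 and 1112, and at distal peaks 490 and 407.

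Short consensus sequences of transcription factors were searched for in the central 300 bp on both strands. The GC box GGGCGG, bound by SP and KLF factors, was in 25.4% of lncRNA-only peaks, 57.5% of peaks at coding starts, 9.89% of distal peaks and 25.9% of all shared peaks. GCGCANGCG, for NRF1, was in 3.55%, 11.4%, 0.712% and 4.24%, and CCGGAAG, for ETS factors, was in 5.33%, 13.4%, 1.78% and 5.59%. These letters hold a CpG. For the next 3 motifs the distal share was the highest. TGANTCA, for AP-1, was in 12.4% of lncRNA-only peaks, 5.47% of peaks at coding starts, 18.8% of distal peaks and 14% of all shared peaks. CAGATG, an E-box of neural basic helix-loop-helix factors, was in 25.6%, 13.2%, 33.5% and 26.4%, and TTGGCA, for NFI, was in 20.7%, 12%, 24% and 19.8%. For each of these 6 motifs the lncRNA-only share lay between the coding and distal sets, and for all of them but AP-1 it was within 1 percentage point of the share of all shared peaks. It did not for GTTNCCATG, for RFX, which was in 4.17%, 1.75%, 3.42% and 2.84%. CCAAT, for NFY, was in 31.7%, 33.5%, 31.3% and 32%. TCTCGCGAG, for BANP, was in none of the 1294 peaks, in 1.04% of peaks at coding starts, in 0.0195% of distal peaks and in 0.345% of all shared peaks. A match is a run of letters and not a measured binding site.

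Some motif shares differed between the CpG classes. The GC box was in 58.8% of CpG-rich and 15.1% of CpG-poor lncRNA-only peaks, beside 71.3% and 27.9% at coding starts. The neural E-box was in 13.1% of CpG-rich and 29.5% of CpG-poor lncRNA-only peaks, beside 8.88% and 22.3% at coding starts. CCAAT was in 30.1% of CpG-rich and 32.2% of CpG-poor lncRNA-only peaks. The 46 lncRNA-only peaks with the NRF1 letters had median heights of 2.47 and 1.73, and those without had 1.28 and 0.948. These were the tallest medians among the motifs compared, and 38 of the 46 peaks were CpG-rich, the taller class. Heights were not compared within a CpG class. Peaks with the AP-1, neural E-box, NFI, AGGTCA or TATAAA letters were lower than those without in both libraries. The gap was smallest for AGGTCA, with 1.29 against 1.31 and 0.952 against 0.975.

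**Figure D3:**
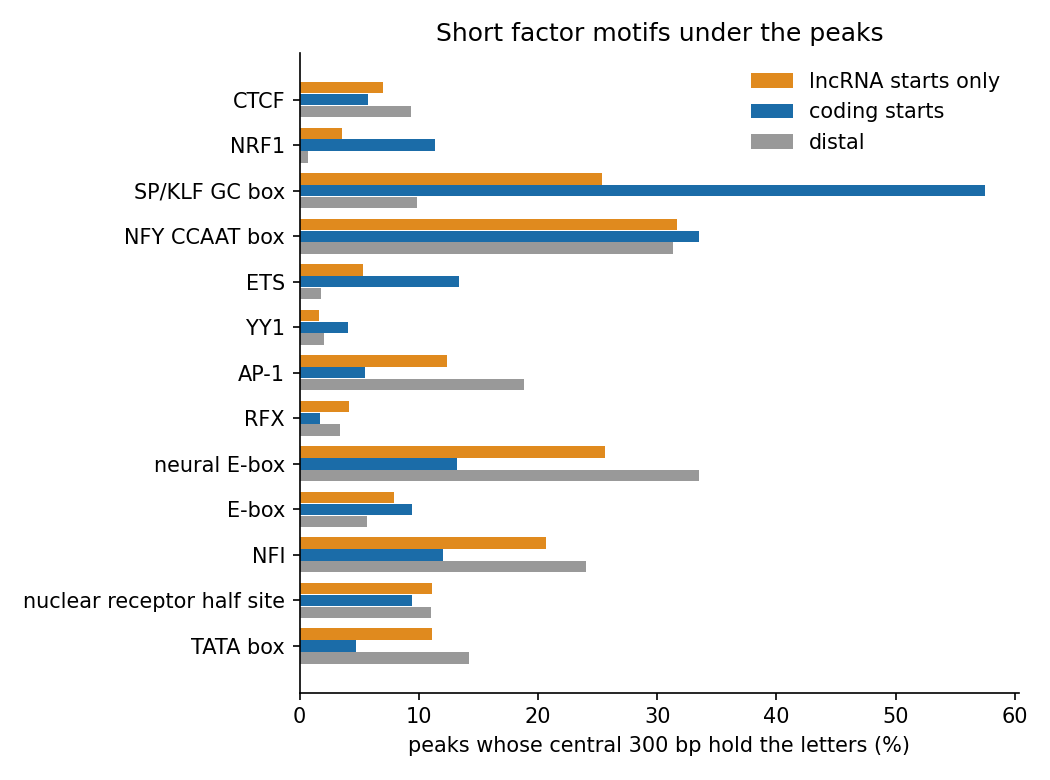
Share of peaks whose central 300 bp hold the letters of each motif, for motifs found in at least 2% of all shared peaks. Bars start at 0, and colours mark lncRNA-only peaks, peaks at coding starts and distal peaks. The GC box is in 25.4%, 57.5% and 9.89%, and the neural E-box in 25.6%, 13.2% and 33.5%.

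The tallest peak by far lay at Gm42418, with heights of 65.5 and 49.8. RefSeq lists this locus as Rn18s-rs5, a pseudogene of 18S ribosomal RNA, and the sequence under the peak has 2 copies in the assembly. Copies that the assembly lacks were not counted. Without the Gm42418 peak the medians were 1.31 and 0.968 as before. The next was 1700113A16Rik, an antisense RNA whose peak lay 9869 bp from the nearest start of Mef2d, a MADS-box transcription factor, with heights of 10.7 and 5.67. Gm15408 had 10.3 and 4.99 and was CpG-poor. Gm12762, 3845 bp from the glycolytic gene Gpi1, had 9.55 and 5.51, and 1700028E10Rik had 9.14 and 5.51. D330050G23Rik had 9.53 and 4.63 and was CpG-poor. B230208H11Rik had 8.74 and 5.21, 6720427I07Rik 7.18 and 5.23, 1700096K18Rik 7.13 and 5.25, Gm13421 7.22 and 5.11, and Gm10433 6.93 and 5.07. Tmem250-ps had 8.79 and 5.42, and RefSeq classes it as protein-coding. Of these 12 peaks all but Gm15408 and D330050G23Rik were CpG-rich, and all but 1700028E10Rik lay outside coding genes. AC154766.4, the second tallest at an antisense start, had 7.71 and 4.08 and was CpG-poor. It missed only the limit for G or C, with 45.7% G or C and 0.72 times the predicted CpG dinucleotides.

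Lists of known lncRNAs showed which classes were open at starts of their own. Host genes of small nucleolar RNAs, whose introns release the small RNAs after splicing, held a lncRNA-only peak in 10 of 13 genes with such a start. Snhg8 had heights of 6.78 and 4.31, Snhg15 had 6.98 and 3.85, Snhg5 had 4.91 and 3.22, and Dancr had 3.90 and 2.96. The tallest peaks of these 4 genes were all CpG-rich. Snhg1, Snhg9 and Gas5 had shared peaks too, with heights of 4.58 and 3.74, 6.70 and 4.38, and 5.72 and 4.15, but these lay within 2000 bp of a coding start and were outside the rule. Across all lncRNA genes with a start of their own the share was 13.4%. The lists were short and hand-picked, so the shares describe them and nothing wider.

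Among abundant nuclear RNAs, Malat1, which gathers in nuclear speckles, had 2 peaks. That 939 bp upstream of the nearest annotated start had heights of 6.87 and 4.39 and was CpG-rich, and that 39 bp upstream had 5.59 and 3.86 and was CpG-poor. The latter missed only the limit for G or C, with 49% G or C and 0.732 times the predicted CpG dinucleotides. Neat1, the scaffold of paraspeckles, had a peak of 2.81 and 1.66 that lay nearer to a start of Frmd8os on the other strand. Pvt1, downstream of Myc, had 1.25 and 1.14. The list held a peak in 4 of 6 genes with a start of their own. Tug1 had a shared peak near a coding start, with 5.56 and 3.54.

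Imprinted lncRNAs, which are transcribed from the chromosome of 1 parent, held a peak in 3 of 8 genes. Kcnq1ot1, a paternally transcribed antisense RNA, had 6.20 and 3.57. Meg3, transcribed from the maternal chromosome and abundant in neurons, had 3.39 and 2.24 at a peak 783 bp downstream of a start. Its other peak, 70 bp upstream of a start, was lower, with 1.66 and 0.868, and was CpG-rich. Snhg14, the long transcript across the Angelman locus, had 0.544 and 0.230, but the sequence under its peak has 19 copies in the assembly. H19, Airn and Rian had no shared peak at a start. On the X chromosome, Ftx had 3.49 and 2.25, Firre had 1.78 and 1.06, Jpx had 0.958 and 0.653, and Tsix had 0.432 and 0.276, with no footprint in either library. Xist, which silences the second X in female cells, had none in these male mice.

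Host genes of microRNAs held a peak in 4 of 11 genes with a start of their own. Mir670hg had 4.20 and 2.90, Mir99ahg 2.94 and 1.62, C130071C03Rik 2.05 and 1.60, and Mir17hg 1.88 and 1.04. Mir124a-1hg, Mir124-2hg and Mir9-3hg, hosts of microRNAs of neurons and their precursors, had no shared strict peak at a start. Of the list of neural lncRNAs 5 of 13 held a peak, and besides Malat1, Neat1 and Meg3 these were Miat, with 1.63 and 0.906, and 2900097C17Rik, with 0.857 and 0.829. Sox2ot, Pantr2 and Rmst had none, and Pantr1 had a shared peak of 4.4 and 3.31 within 2000 bp of a coding start. Of 11 lncRNAs at loci of developmental transcription factors that have a start of their own, 0 held a lncRNA-only peak, Otx2os1, Nkx2-2os and Hoxa11os among them. Another of the 11, Wt1os, had a shared peak of 0.563 and 0.622 within 2000 bp of a coding start. Over all lncRNA genes with a start of their own the share was 13.4%, and 11 genes are too few to tell 0 from that share.

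The libraries ranked the peaks alike. Across the 1294 peaks, Spearman's rho of the heights was 0.922 and Pearson's r of their log10 was 0.933. Each point is a region measured in the same 2 libraries, whose depth is not stated, so these are descriptions. Heights in replicate 1 were a median of 1.41 times those in replicate 2, and 1.38 times over all shared peaks. A ratio over 2-fold above the latter was found in 0.146% of all shared peaks and in none of the lncRNA-only peaks. A ratio over 2-fold below it was found in 2.12% of all shared peaks and in 14 lncRNA-only peaks (1.08%). The farthest below were C230004F18Rik, with heights of 0.363 and 0.898, and Gm37892, with 0.563 and 1.31. The farthest above were Gm33027, with 1.25 and 0.461, and AC132253.9, with 1.51 and 0.568. Position alone chose 1956 strict peaks of replicate 1, and 66.2% of these were shared with replicate 2, close to the 66.2% of all strict peaks of replicate 1, with 72.0% at coding starts and 64.6% of distal peaks. The 662 that were not shared had a median height of 0.638, and 334 of them overlapped a peak of the larger set of replicate 2.

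**Figure D4:**
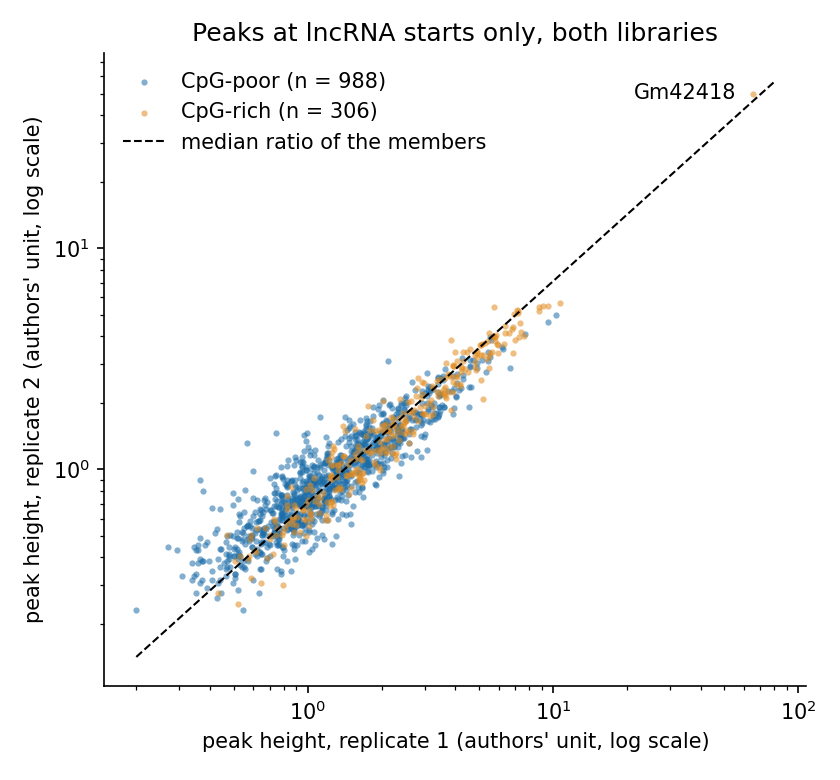
Height of each lncRNA-only peak in replicate 1 and replicate 2, on logarithmic axes, with CpG-rich peaks in orange and CpG-poor peaks in blue. The dashed line marks the median ratio of 1.41. Gm42418 stands apart at 65.5 and 49.8 but lies near the line.

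Turned round to genes, 1028 of the 7678 lncRNA genes with a transcript start of their own, over 2000 bp from every coding start, held such a peak within 1000 bp of a start (13.4%, Wilson 95% interval 12.6 to 14.2%). For protein-coding genes the share with any shared peak within 1000 bp of a start was 58.2% of 21951. These shares are unlike measures, since a shared peak within 2000 bp of a coding start did not count for a lncRNA gene. Among lncRNA genes the share was 25.2% for processed_transcript genes, 13.1% for lincRNA and 10.9% for antisense. It was 10.8% for lncRNA genes with 1 annotated transcript and 36.3% for those with 5 or more, which have more starts at which a peak can fall. Genes whose best transcript had support level 1, the best-supported class of GENCODE, reached 16.5%, and those at level 5 reached 7.75%. On the X chromosome 22 of 145 genes held a peak. On the Y chromosome 0 of 551 did, which allows a share of up to 0.544% by the limit of 3 counts (0.692% by the upper Wilson bound). Y had 27 strict peaks in replicate 1, 15 in replicate 2 and 13 shared peaks in all. How well reads could be placed on Y was not tested, so the 0 does not show that these starts are closed. On the autosomes the share was 14.4%.

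**Figure D5:**
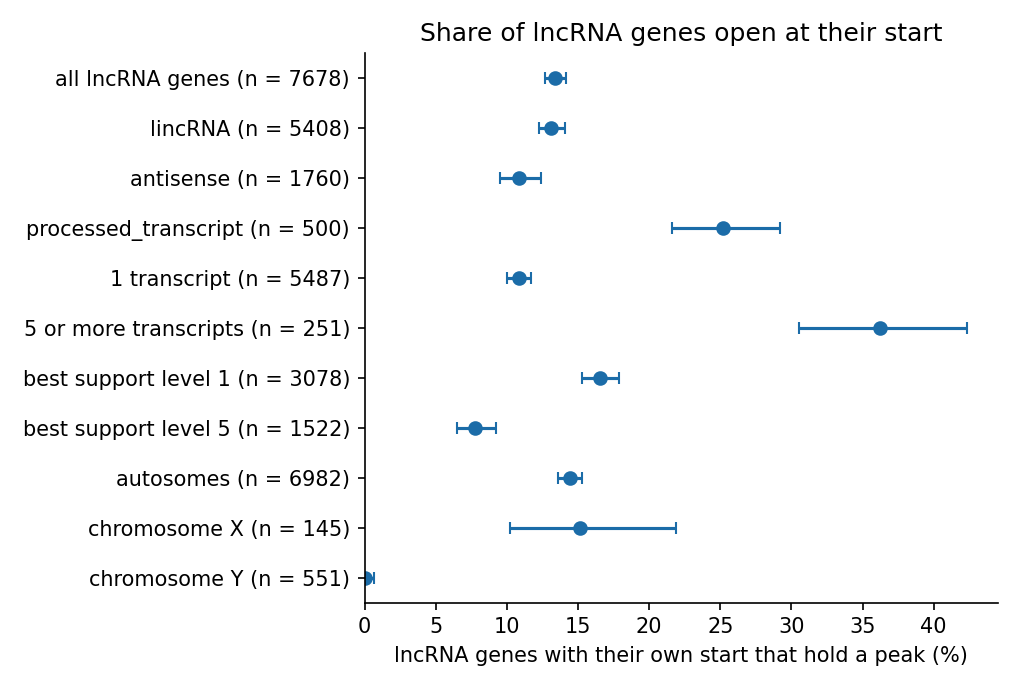
Share of lncRNA genes with a start of their own that hold a lncRNA-only peak within 1000 bp of a start, in percent, with Wilson 95% intervals. The share is 13.4% over all genes, 25.2% for processed_transcript, 36.3% for genes with 5 or more transcripts and 0 on the Y chromosome.

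Most peaks lay clear of coding genes. Outside coding genes were 1085 peaks, and 181 lay inside a coding gene whose strand was opposite to the lncRNA, 25 inside a coding gene of the same strand and 3 inside genes of both strands. A lincRNA lies between genes by definition, and most of the peaks were at lincRNA starts. These places were not computed for the other peak sets. The nearest coding start was a median of 37708 bp away. Peaks farther from coding starts were lower in both libraries. The 266 peaks at 2 to 10 kb had medians of 1.70 and 1.14, the 475 at 10 to 50 kb had 1.40 and 1.05, and the 553 beyond 50 kb had 1.08 and 0.837. The nearest coding gene had a shared peak at its own promoter for 956 of the peaks (73.9%). Over all coding genes, each counted once, 58.2% had a shared peak at a start. The share per peak was not computed for the other peak sets, so it is not shown to be particular to these peaks.

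A single peak marked 806 of the 1008 genes, and 202 had 2 or more. C130071C03Rik, host of a miR-9 gene, had 14 peaks in 10 separate regions over 18410 bp (chr13:83720531-83738940), and its nearest coding gene was Mef2c. Its lowest peak had heights of 0.501 and 0.407, and its tallest had 2.05 and 1.60. Mir99ahg had 8 peaks spread over 358980 bp, with heights from 0.688 to 2.94 and from 0.553 to 1.62. 3110039I08Rik and Gm3764 had 6 each. Gm6410 had 4 peaks within 2000 bp, of which the tallest reached 5.46 and 4.15.

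RefSeq classed a minority of the genes differently. In RefSeq, 593 of the 1008 genes had an entry, and 564 of these were lncRNA, 18 protein-coding and 8 transcribed pseudogenes. Among the 18 were Tmem250-ps, Zswim6, whose peak had heights of 5.26 and 3.74, Tctn2, with 5.13 and 3.68, and Spata5l1, with 3.14 and 2.00. Within 1000 bp of a RefSeq mRNA start lay 64 of the 1294 peaks (4.95%), and 43.8% of these were CpG-rich. The other 1230 had medians of 1.30 and 0.968, with 22.6% CpG-rich. Repeats and copies were few, with 21 peaks at least 50% repeat-masked (1.62%) and 28 with over 1 copy in the assembly (2.16%). Among all shared peaks these shares were 1.48% and 0.8455%, so sequences with over 1 copy were more common in the lncRNA-only set. The share with over 1 copy was 0.672% for peaks at coding starts and 0.748% for distal peaks.

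At the edge of the 1000 bp limit, Gm15945 at 998 bp (1.00 and 0.683) and Gm29458 at 997 bp (0.901 and 0.561) were inside, and AC147229.1 at 1007 bp (2.57 and 2.29) and Gm45892 at 1008 bp (0.788 and 0.630) were outside. At the 2000 bp limit to coding starts, 9530026P05Rik at 2001 bp (1.26 and 0.691) and Gm15906 at 2003 bp (1.71 and 1.03) were inside, and Gm11752 at 1995 bp (1.5 and 1.18) and Gm14377 at 1992 bp (1.98 and 1.23) were outside. Values in parentheses are heights in replicates 1 and 2.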

How the data were processed

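Peak height is a signal that the authors deposited for each peak, with peaks called separately in each library on its filtered mm10 alignments, per the deposited description files. The false discovery rates per base are q-values deposited by the authors (FDR, listed up to 0.05), and the authors' footprints carry the constant 0.01 and no value of their own. For the aligner, the callers, their thresholds and the read depth, nothing is given in the sources used here. How precise a single height is cannot be stated. Chromosome lengths of GRCm38.p6 contained all coordinates. The smaller of each library's 2 peak sets was used. Peaks of replicate 1 were matched to the peak of replicate 2 with the longest overlap, and centres were measured to GENCODE M21 transcript starts. GC and CpG content, 18 motifs and repeat masking were read from GRCm38.p6. To count copies, 3 words of 31 bases from each peak were looked up in the assembly on both strands and the median was taken. RefSeq supplied the second annotation. Overlap, position, copy, motif and base-composition functions were tested on simulated data. No p-value was computed, since the 2 libraries form 1 group. Wilson 95% intervals cover counting error only.

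The peaks and the 7 gene lists were chosen with earlier results of these data known. Named genes are the 12 tallest peaks, the tallest 2 of each gene type, up to 4 list members with a peak and up to 3 without, the 2 farthest above and below the median height ratio, the 3 with most footprints and those next to a limit. Genes with many peaks, those with a RefSeq coding class, further list members and shared peaks near coding starts were named after their values were seen. Alternatives covered the overlap, peak set, windows, annotation classes, copies, CpG definition and each library left out. Python packages were numpy 2.4.6, pandas 2.3.3, scipy 1.17.1, numba 0.67.0 and matplotlib 3.10.9.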

Additional observations from a re-analysis of the deposited data

How the results depend on the processing

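Of 110 recomputed values, 75 stayed within the stated margin of the reported value (1.5 times for the count, the 95% interval for shares, 1 SD of the libraries for the height ratio), and 35 did not. The cause was not tested. The larger peak sets gave 1968 peaks, 20.3% at antisense starts, 19.1% CpG-rich, 73.6% with footprints in both libraries and 18.9% of lncRNA genes open. A 500 bp window gave a height ratio to coding starts of 0.603, 27% CpG-rich and 10.7% of genes open. A 2000 bp window gave 0.716, 19.3% and 17.5%, with 20.1% antisense. Gene 5-prime ends alone gave 59.3% lincRNA, 28.9% antisense, 11.6% processed_transcript, a ratio of 0.605 and 28.5% CpG-rich. Asking only over 1000 bp from coding starts gave 63.9% lincRNA and 21.3% antisense, and asking over 5000 bp left 0% bidirectional_promoter_lncRNA. Every noncoding and pseudogene type gave 1952 peaks and 5.87% of genes open. lincRNA alone gave 21.3% CpG-rich, and the stricter CpG definition gave 12.4%. Overlap of at least 50% of both peaks gave 92.3% with footprints in both and 11% of genes open. Leaving out a library, and with it the overlap, gave 1493 to 1956 peaks, 17.7 to 20.1% antisense, a ratio of 0.715 to 0.735, 20.7 to 21.2% CpG-rich, 82.6 to 85.4% with a footprint in the library kept and 14.4 to 17.6% of genes open. In every setting run the height ratio stayed below 1. Leaving out peaks near RefSeq mRNA starts and merging overlapping peaks, both chosen after seeing the data, moved no value past its margin. No paired analysis was possible because the labels give 1 group, so no sample of another group can be paired with a replicate, and peak sets were compared within each library instead.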
